A study of Mus musculus with 23 samples.

Results

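The genes described here are 44 regulators and markers of the mammalian cell cycle, chosen by name out of 22350 protein-coding genes counted in RNA-seq. They were read in every RNA-seq and Ribo-seq group of the series. By role they were 9 S phase genes (*Pcna*, *Mcm2* to *Mcm7*, *Rrm1* and *Rrm2*), 5 genes of replication licensing and nucleotide supply (*Cdc6*, *Cdt1*, *Gins2*, *Tk1* and *Tyms*), 6 G1 and S cyclins and kinases (*Ccne1*, *Ccne2*, *Ccna2*, *Cdk2*, *Cdk4* and *Cdk6*), 18 mitotic genes, 4 inhibitors of cyclin-dependent kinases (*Cdkn1a*, *Cdkn1b*, *Cdkn2a* and *Cdkn2b*) and 2 general proliferation genes (*Mki67* and *Foxm1*). The mitotic genes were *Top2a*, *Ccnb1*, *Ccnb2*, *Cdk1*, *Cdc20*, *Plk1*, *Aurka*, *Aurkb*, *Bub1*, *Bub1b*, *Birc5*, *Kif11*, *Kif20a*, *Kif23*, *Cenpe*, *Cenpf*, *Nusap1* and *Tpx2*.

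The study asked how loss of *Rptor*, an essential subunit of mTORC1, alters intestinal stem cells, in C57BL/6 mice and in organoids, which are epithelial cultures grown from intestinal crypts. RNA-seq covered WT organoids (VillinCre.ERT2.RPL22.HA, untreated), *Rptor* fl/fl organoids (VillinCre.ERT2.Rptor.fl/fl, untreated) and stem cell enriched (SCe) organoids (VillinCre.ERT2.RPL22.HA, grown with 10 µM CHIR99021 and 1.5 mM valproic acid). Ribo-seq, which sequences the mRNA fragments (footprints) that ribosomes cover, was made of *Rptor* fl/fl organoids (VillinCre.ERT2.Rptor.fl/fl.RPL22.HA, untreated), of SCe organoids (VillinCre.ERT2.RPL22.HA) and of small intestine from WT mice (Lgr5Cre.ERT2.RPL22.HA) and *Rptor* fl/fl mice (Lgr5Cre.ERT2.Rptor.fl/fl.RPL22.HA), both untreated according to the labels. The methods instead describe tamoxifen as the trigger of Cre in all these lines, and ribosomes were isolated through the HA tag of RPL22. VillinCre acts throughout the intestinal epithelium and *Lgr5*Cre in crypt base stem cells. RNA-seq of *Rptor* fl/fl organoids is labelled without the RPL22.HA allele that the other organoids carry, so the tag and the genotype cannot be told apart in those comparisons. WT and *Rptor* fl/fl RNA-seq had 2 organoid lines each with 2 technical libraries, which were summed, and every other group had 3 libraries.

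Cells copy their DNA in S phase and separate the copies in mitosis. The E2F factors switch on S phase genes once cyclin-dependent kinases have inactivated the retinoblastoma protein, and mitotic genes follow later through the MuvB complex with B-MYB and FOXM1. In the intestine the dividing cells are the stem cells at the crypt base and the transit-amplifying cells above them, and crypt cells stop dividing as they move onto the villus. In bulk samples, fewer dividing cells and less of an mRNA per dividing cell cannot be told apart.

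Estimated counts per library ran from 23802944 to 67598878 in RNA-seq, from 1106178 to 8257457 in Ribo-seq of organoids and from 772077 to 8238388 in Ribo-seq of mice. Levels are given as CPM, counts scaled to library size with TMM factors (edgeR). *Rptor* itself fell in RNA-seq, from 51.5 and 47.9 CPM (WT) to 14.8 and 15.5 CPM (*Rptor* fl/fl) (log2 fold change -1.71, edgeR adjusted p = 0.00516), while its footprints did not pass the test in organoids (log2 fold change -0.53, edgeR adjusted p = 0.318) or in mice (-0.28, edgeR adjusted p = 0.150). Directions in Ribo-seq are therefore those of libraries labelled *Rptor* fl/fl. SCe replicate 1 stood apart in RNA-seq. Its summed enterocyte markers were 229.2 CPM against 5741 and 6675 CPM in SCe replicates 2 and 3, and in Ribo-seq they were 851.1 CPM against 2903 and 3242 CPM. *Lgr5*, the stem cell marker, was at 215.1 and 197.1 CPM in WT RNA-seq, at 44.4 and 73.9 CPM in *Rptor* fl/fl and between 218.9 and 337.0 CPM in SCe. Other stem cell markers fell in RNA of SCe over WT, *Olfm4* (log2 fold change -5.555, edgeR adjusted p = 0.00351) and *Ascl2* (-1.81, edgeR adjusted p = 0.00930). *Lgr5* (0.35), *Smoc2* (0.98) and *Axin2* (0.11) did not pass there. Summed, the 5 stem cell markers were at 3561 to 5126 CPM in WT and at 825.6 to 1606 CPM in SCe.

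Most of the 44 genes were well expressed in WT organoids. On the deposited TPM scale, which accounts for transcript length, the RNA of *Cdk4*, the G1 kinase, was highest (295 and 300 TPM in the WT lines), followed by *Pcna*, the sliding clamp of DNA polymerase (254 and 244 TPM). The next levels were those of *Top2a*, the topoisomerase that untangles chromosomes, at 147 and 131 TPM, and of *Cdk1*, the mitotic kinase, at 132 and 125 TPM, and these ranges overlapped. The lowest levels were those of *Cdkn2a* (0.196 and 0.192 TPM), *Gins2* (7.43 and 7.44 TPM), *Ccne2* (11.1 and 10.2 TPM) and *Ccne1* (12.7 and 12.5 TPM).

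In RNA of *Rptor* fl/fl over WT organoids, 2 of the 44 genes rose and 2 fell, which is 4.55% each way, while 11.6% of all 14131 genes tested rose and 11.0% fell (edgeR's quasi-likelihood test with Benjamini-Hochberg adjustment at 0.05, 2 lines against 2). The genes that fell were *Pcna* and *Ccne2*, an E-type cyclin that starts S phase, and those that rose were *Cdk6*, the partner kinase of D-type cyclins, and *Cdkn2a*, which encodes the inhibitor p16Ink4a and, in another reading frame, p19Arf.

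In WT organoids *Pcna* stood at 259 and 252 CPM, and in *Rptor* fl/fl organoids at 213 and 197 CPM (log2 fold change -0.32 ± 0.07 SE, edgeR adjusted p = 0.0356). *Ccne2* went from 24.6 and 22.9 CPM to 18.0 and 16.0 CPM (-0.48 ± 0.10, edgeR adjusted p = 0.0316). *Cdk6* went from 178 and 162 CPM to 229 and 209 CPM (0.37 ± 0.08, edgeR adjusted p = 0.0397). In all 3 genes the lines of the groups did not overlap, and none of these calls held when any of the 4 lines was left out or when the SCe libraries shared the fit.

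All 9 S phase genes had a lower fitted level, with a median log2 fold change of -0.14 beside -0.00 for all genes, and *Pcna* was the one that passed the test. The 18 mitotic genes had a median of -0.16, and none of them passed in edgeR (1 higher and 6 lower at an unadjusted p below 0.05) or in DESeq2. Their extremes were *Aurka*, a spindle pole kinase, at -0.37 (95% interval -0.67 to -0.06) and *Kif23*, a kinesin of the midbody, at 0.30 (95% interval 0.05 to 0.55). S phase and mitotic genes thus differed by 0.02 in their median log2 fold change. The medians moved with the *Rptor* fl/fl line kept, to -0.23 and -0.22 without line 1 and to -0.04 and -0.07 without line 2. *Mki67*, the common proliferation marker, was at 778 and 722 CPM in WT and at 889 and 768 CPM in *Rptor* fl/fl, with overlapping lines (0.14 ± 0.10, edgeR adjusted p = 0.365), and *Foxm1* was at 0.00 (95% interval -0.23 to 0.24).

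Further genes of the same processes were listed apart from the 44. Of 42 replication genes 7 fell (16.7%, against 11.0% of all genes), led by *Dbf4* (log2 fold change -0.45), the activator of the CDC7 kinase, and *Gmnn* (-0.53), which encodes the licensing inhibitor geminin, and none rose in edgeR (1 at an unadjusted p below 0.05) or in DESeq2. Of 48 further mitosis genes 1 rose (2.08%) and 5 fell (10.4%), close to the share of all genes that fell, led by *Cks2* (-0.56) and *Cdca3* (-0.51). Of 27 G1 control genes 3 rose (11.1%) and 1 fell (3.70%), with *Mycn* at 1.45 and *Cdkn1c*, which encodes the inhibitor p57, at -1.25. Of 20 p53 target genes 5 rose (25.0%, against 11.6% of all genes) and 3 fell (15.0%), with *Bbc3* at 0.99 and *Btg2* at -0.69. The p53 list also counts *Trp53*, which encodes p53 itself. These further lists were drawn up with earlier results of the same data known. In the same RNA the summed stem cell markers were at 3561 to 5126 CPM in WT and at 802.8 to 2042 CPM in *Rptor* fl/fl, and Paneth markers at 2807 to 3324 CPM and 458.6 to 979.6 CPM. Their part in these values was not tested.

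**Figure D1:**
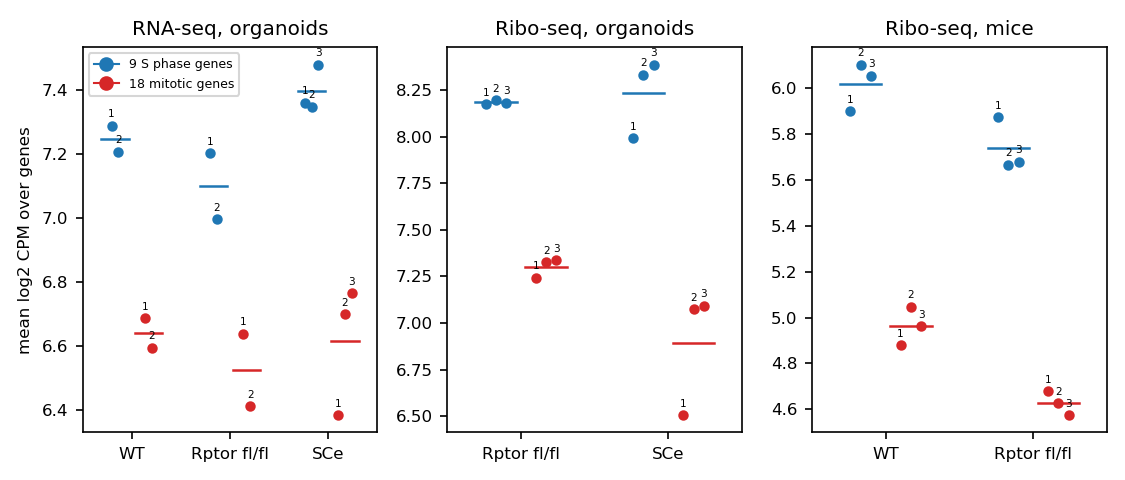
Mean log2 CPM, with a prior count of 2, of the 9 S phase genes (blue) and the 18 mitotic genes (red) in each organoid line or library (points numbered by replicate) with the group mean (bars), in RNA-seq of organoids, Ribo-seq of organoids and Ribo-seq of mice. In Ribo-seq of organoids the distance between the classes is 0.85 to 0.93 in Rptor fl/fl and 1.26 to 1.49 in SCe, while in mice both classes are lower in Rptor fl/fl than in WT.

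SCe organoids differed from WT in the RNA of 8 of the 44 genes. *Rrm2*, the regulated subunit of ribonucleotide reductase, *Ccne1*, the other E-type cyclin, and *Cdkn2a* rose, and *Tk1*, thymidine kinase of the nucleotide salvage route, *Cdk2*, *Bub1b*, a spindle checkpoint kinase, *Cdkn1b*, which encodes p27, and *Cdkn2b*, which encodes p15, fell. This made 3 of 44 genes higher and 5 lower, where 22.4% of 14925 genes tested rose and 19.9% fell (edgeR, 3 libraries against 2 lines).

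WT organoids had 96.8 and 79.2 CPM of *Rrm2*, and SCe organoids 168, 161 and 169 CPM (log2 fold change 0.94 ± 0.10, edgeR adjusted p = 0.00340). *Tk1* went the other way, from 66.9 and 63.2 CPM to 29.1, 37.0 and 37.7 CPM (-0.89 ± 0.13, edgeR adjusted p = 0.00709). *Ccne1* went from 17.6 and 17.9 CPM to 36.8, 28.1 and 31.7 CPM (0.88 ± 0.13, edgeR adjusted p = 0.00698). In each of these 3 genes the groups did not overlap. Among S phase genes *Rrm1*, the other subunit of the reductase, was at 0.23 (95% interval 0.04 to 0.42) and did not pass the test (edgeR adjusted p = 0.0577).

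*Cdkn2b* had the largest fall among the members, from 25.2 and 20.6 CPM to 6.29, 5.89 and 5.25 CPM (log2 fold change -1.96 ± 0.15, edgeR adjusted p = 0.00161). *Cdkn1b* fell from 61.1 and 68.6 CPM to 37.7, 44.2 and 43.4 CPM (-0.61 ± 0.10, edgeR adjusted p = 0.00997). *Cdk2* was at -0.40 ± 0.11 (edgeR adjusted p = 0.0360) and *Bub1b* at -0.31 ± 0.06 (edgeR adjusted p = 0.0114). *Cdkn1a*, which encodes the p53 target p21, was at 118 and 79.1 CPM in WT and at 231, 140 and 130 CPM in SCe and did not pass (0.78 ± 0.32, edgeR adjusted p = 0.110). The 9 S phase genes had a median of 0.16 and the 18 mitotic genes one of 0.01, against 0.02 for all genes. Without SCe replicate 1 these medians were 0.14 and 0.11, so that their difference went from 0.14 to 0.02, and without WT line 1 they were 0.16 and 0.15.

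SCe replicate 1 bore on this comparison. Without it 15 of the 44 genes rose and 9 fell, while 31.9% of 14855 genes rose and 32.2% fell. The additional genes included the mitotic *Ccnb1*, cyclin B1 (log2 fold change 0.51), *Cdk1* (0.48), *Cenpf* (0.40), *Aurka* (0.39) and *Cenpe* (0.39), and *Mki67* (0.35), each with an edgeR adjusted p between 0.00118 and 0.00700. The others that rose were the mitotic *Tpx2* (0.38), *Kif20a* (0.36) and *Aurkb* (0.26) and the S phase *Mcm7* (0.30), *Rrm1* (0.26) and *Pcna* (0.20). Those that fell were the mitotic *Birc5* (-0.30) and *Cdc20* (-0.20), *Mcm4* (-0.22) and *Cdk4* (-0.22). The 8 genes called on all SCe libraries stayed called and kept their direction without it. When a WT line was left out instead, which leaves 1 line in that group, fewer of the 44 genes and fewer of all genes passed. Over all 12 alternatives the log2 fold change ran from 0.79 to 1.07 for *Rrm2* and from -2.11 to -1.83 for *Cdkn2b*. Replicate 1 held the lowest mitotic mean of the SCe libraries (6.39 log2 CPM against 6.70 and 6.77) and an S phase mean within their range (7.36 against 7.35 and 7.48).

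*Rrm2* and *Tk1*, the enzymes of nucleotide supply that moved in opposite directions, are shown by the 250 bases before their transcription starts. RefSeq promoters on GRCm38.p6 were found for 36 of the 44 genes, those without one being *Aurkb*, *Ccna2*, *Ccne2*, *Foxm1*, *Gins2*, *Kif20a*, *Mcm4* and *Tpx2*. Capitals mark matches on either strand to the CCAAT box (CCAAT), the cell cycle homology region (CHR, TTTGAA) or an E2F site (TTTCCCGC, TTTCGCGC, TTTGCCGC or TTTGGCGC), and no matches overlapped in the sequences shown.
Rrm2, chr12:24708004-24708253, plus strand: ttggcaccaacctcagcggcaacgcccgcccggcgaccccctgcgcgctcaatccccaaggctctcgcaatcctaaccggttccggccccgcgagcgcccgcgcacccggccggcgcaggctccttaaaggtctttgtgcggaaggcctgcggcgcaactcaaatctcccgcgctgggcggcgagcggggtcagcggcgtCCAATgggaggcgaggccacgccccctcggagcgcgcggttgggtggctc
Tk1, chr11:117826015-117826264, minus strand: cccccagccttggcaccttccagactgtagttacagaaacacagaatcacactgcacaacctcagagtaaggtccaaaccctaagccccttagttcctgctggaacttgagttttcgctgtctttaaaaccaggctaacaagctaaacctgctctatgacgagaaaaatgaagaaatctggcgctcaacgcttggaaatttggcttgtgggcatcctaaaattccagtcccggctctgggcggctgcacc
The *Rrm2* sequence held 1 CCAAT box, 50 bases before the start, and the *Tk1* sequence held none of these letters. Of 32851 RefSeq promoters 33.8% held a CCAAT box, 16.0% a CHR and 1.86% an E2F site. All 8 S phase promoters and 13 of 15 mitotic ones held a CCAAT box. An E2F site was found in 3 of 8 S phase and 1 of 15 mitotic promoters, and a CHR in 1 of 8 and 5 of 15. These matches are a description of letters and were not tested for binding.

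**Figure D2:**
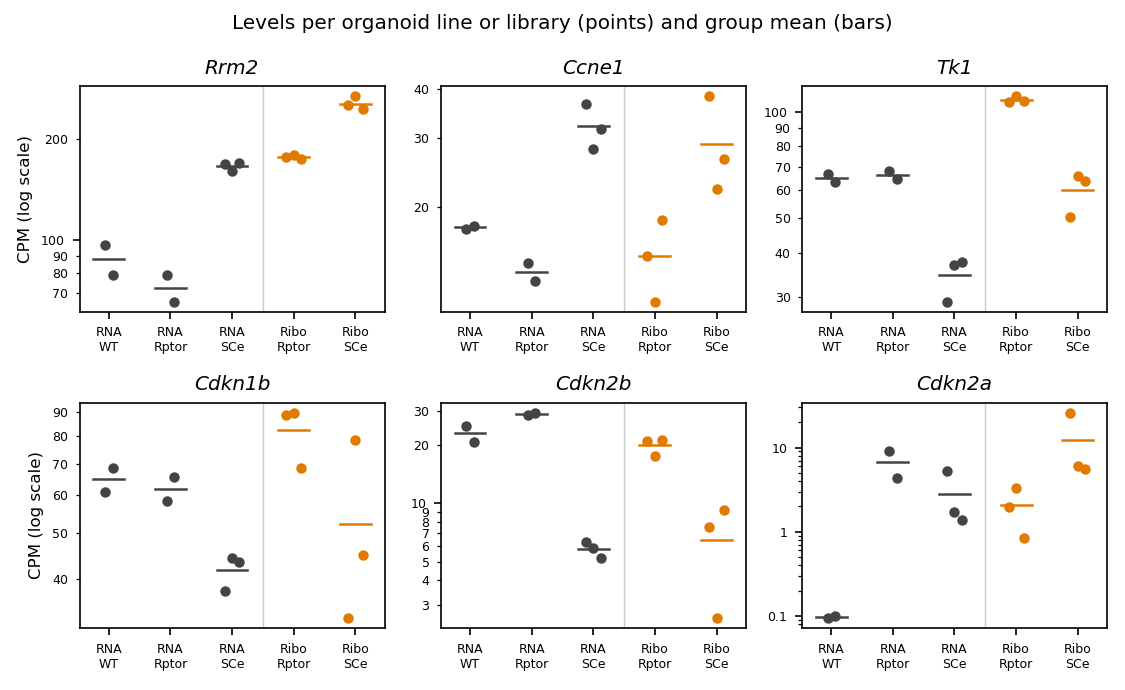
CPM on a log axis of 6 genes in each organoid line or library (points) with the group mean (bars), for RNA-seq (grey) and Ribo-seq (orange). Rrm2 and Ccne1 are higher and Tk1 and Cdkn2b lower in SCe than in Rptor fl/fl organoids in both assays, and Cdkn2a is at or below 0.101 CPM in WT and at or above 1.38 CPM in the other RNA groups.

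*Rptor* fl/fl organoids were also compared in RNA with SCe organoids, and the same libraries enter the comparisons with WT. Of the 44 genes 4 rose and 4 fell, against 21.0% and 21.8% of 15103 genes (edgeR, 2 lines against 3 libraries). *Rrm2* (log2 fold change -1.20 ± 0.10), *Ccne1* (-1.24 ± 0.15), *Pcna* (-0.46 ± 0.09) and *Cdk1* (-0.50 ± 0.15) were lower in *Rptor* fl/fl, and *Cdkn2b* (2.32 ± 0.12), *Tk1* (0.94 ± 0.13), *Cdkn1b* (0.57 ± 0.10) and *Cdk2* (0.42 ± 0.11) were higher. Without SCe replicate 1, 6 rose and 16 fell, against 30.6% and 30.2% of 14953 genes. Those newly called lower without it included *Aurka* (-0.75), *Ccnb1* (-0.75), *Mcm7* (-0.42), a subunit of the replicative helicase, and *Cenpf* (-0.42). *Kif23* (0.38) and *Cdkn2a* (2.125) were newly called higher. The S phase median was -0.20 and the mitotic median -0.14, against -0.01 for all genes, and without SCe replicate 1 they were -0.21 and -0.22. Leaving out *Rptor* fl/fl line 1 gave -0.29 and -0.26, and leaving out line 2 gave -0.10 and -0.04.

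The further lists were read against the same shares of all genes. In SCe over WT, 6 of 42 replication genes rose (14.3%) and 7 fell (16.7%), below the 22.4% and 19.9% of all genes, led by *Rpa1* (log2 fold change 0.64) and *Orc3* (0.67), and 3 of 48 mitosis genes rose (6.25%) and 1 fell (2.08%), *Spc25* (0.41) and *Cdca3* (-0.43) leading. Of 27 G1 control genes 8 rose (29.6%) and 6 fell (22.2%), with *Lin54*, of the MuvB complex, at -0.74 and *E2f1* at 0.64, and of 20 p53 target genes 9 rose (45.0%) and 2 fell (10.0%), led by *Aen* (1.07) and *Bax* (1.06). In *Rptor* fl/fl over SCe, 3 replication genes rose (7.14%) and 10 fell (23.8%), beside 21.0% and 21.8% of all genes, led by *Chaf1b* (-0.94), a histone chaperone subunit, and *Rpa1* (-0.61). Of the mitosis genes 6 fell (12.5%), led by *Cks2* (-0.60) and *Smc2* (-0.36), and none rose in edgeR, at an unadjusted p below 0.05 or in DESeq2. Of the G1 control genes 6 rose and 6 fell (22.2% each), with *E2f1* (-0.81) and *Cdkn1c* (-2.07) among those that fell. Of the p53 list 4 rose and 4 fell (20.0% each), led by *Trp53* (0.69), the gene of p53 and not a target, and *Aen* (-0.65). Goblet markers were at 1604 to 1696 CPM of RNA in WT, 2790 to 3932 CPM in *Rptor* fl/fl and 234.6 to 461.0 CPM in SCe, and their part in these values was not tested.

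In footprints of the organoids labelled *Rptor* fl/fl over SCe, 3 of 18 mitotic genes rose and 1 of 9 S phase genes fell. Of the 44 genes 5 rose and 4 fell, or 11.4% and 9.09%, against 6.63% and 9.84% of 10817 genes (edgeR, 3 libraries against 3). *Kif23*, *Cenpe*, a kinesin of the kinetochore, and *Kif11*, the kinesin that separates spindle poles, rose with *Tk1* and *Cdkn2b*, and *Rrm2*, *Ccne1*, *Cdk6* and *Cdkn2a* fell.

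*Kif23* footprints were at 172, 182 and 183 CPM in *Rptor* fl/fl and at 59.0, 92.1 and 108 CPM in SCe (log2 fold change 1.04 ± 0.22, edgeR adjusted p = 0.0152). *Cenpe* was at 138, 139 and 131 CPM against 50.9, 75.9 and 102 CPM (0.83 ± 0.24, edgeR adjusted p = 0.0477). *Kif11* was at 258, 382 and 347 CPM against 176, 188 and 227 CPM (0.74 ± 0.20, edgeR adjusted p = 0.0387). In these 3 mitotic genes the groups did not overlap, and SCe replicate 1 was the lowest library. In the same libraries *Mki67* was at 1169, 1258 and 1282 CPM against 490, 798 and 988 CPM (0.70 ± 0.25) and did not pass the test (edgeR adjusted p = 0.0925).

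*Rrm2* footprints were at 177, 179 and 174 CPM in *Rptor* fl/fl and at 251, 267 and 244 CPM in SCe (log2 fold change -0.53 ± 0.15, edgeR adjusted p = 0.0429), a smaller difference than in RNA. *Tk1* footprints were at 107, 111 and 107 CPM against 50.3, 65.7 and 63.9 CPM (0.85 ± 0.17, edgeR adjusted p = 0.0109). *Cdkn2b* was at 21.1, 17.6 and 21.2 CPM against 7.58, 2.56 and 9.22 CPM (1.48 ± 0.35, edgeR adjusted p = 0.0215). These groups did not overlap either. *Ccne1* (-0.96 ± 0.27) and *Cdk6* (-0.59 ± 0.17) were called lower. With an offset for the effective lengths that Salmon gave, none of the 9 calls held in edgeR, and the values of *Ccne1* and *Cdk6* turned to 0.55 and 1.69. The share of all genes called higher was then 2.45% and lower 3.60%.

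By class, the median log2 fold change of footprints was 0.33 for the mitotic genes, with 14 of 18 above 0, and 0.04 for the S phase genes, with 5 of 9 above 0, beside -0.02 for all genes. Without SCe replicate 1 the mitotic median was 0.19, again with 14 of 18 above 0, and the S phase median turned to -0.17, with 3 of 9 above 0. The difference of S phase and mitotic medians was -0.29, -0.36 without that library, and -0.61 with the length offset. In the libraries themselves, the mean log2 CPM of S phase genes exceeded that of mitotic genes by 0.93, 0.87 and 0.85 in *Rptor* fl/fl and by 1.49, 1.26 and 1.29 in SCe, so that the groups did not overlap. In RNA the same distance was 0.56 and 0.59 in *Rptor* fl/fl, 0.98, 0.65 and 0.71 in SCe and 0.60 and 0.61 in WT. Further mitosis genes had a median of 0.35 in footprints, with 40 of 48 above 0 and 3 called higher (6.25%, near the 6.63% of all genes), led by *Hmmr* (1.095) and *Sgo1* (1.09), and further replication genes had a median of 0.15 with 1 of 42 called lower (2.38%, against 9.84% of all genes), *Chaf1b* at -0.71. Of 20 p53 target genes 4 fell (20.0%), led by *Zmat3* (-1.06) and *Perp* (-0.78), and of 27 G1 control genes *Lin54* rose (0.77) and *Ccnd2*, cyclin D2, fell (-0.92).

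Differentiation markers moved with these values. Summed enteroendocrine markers were at 482.4 to 574.0 CPM of footprints in *Rptor* fl/fl and at 35.2 to 59.7 CPM in SCe, enterocyte markers at 7358 to 7856 CPM against 851.1 to 3242 CPM, and stem cell markers at 4988 to 5322 CPM against 1547 to 3041 CPM. The stem cell sum was mostly *Olfm4* (4315 to 4669 CPM against 414.5 to 1157 CPM), whose footprints rose (log2 fold change 2.47, edgeR adjusted p = 0.00288), while those of *Lgr5* (-1.23, edgeR adjusted p = 0.00668) and *Smoc2* (-1.64, edgeR adjusted p = 0.00288) fell. Their part in the result was not tested. None of the 9 calls held without *Rptor* fl/fl Ribo-seq replicate 2 or without replicate 3, and 1, that of *Kif11*, held without replicate 1. The shares of all genes called were lower there too. Without replicates 1, 2 and 3 of *Rptor* fl/fl, 2.73%, 2.59% and 2.13% of all genes rose and 5.34%, 4.45% and 3.93% fell. Without SCe replicate 1 or 3 the count was 11, and without SCe replicate 2 it was 6. Of all genes 10.4%, 9.70% and 6.14% rose without SCe replicates 1, 3 and 2, and 13.4%, 10.6% and 8.07% fell.

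**Figure D3:**
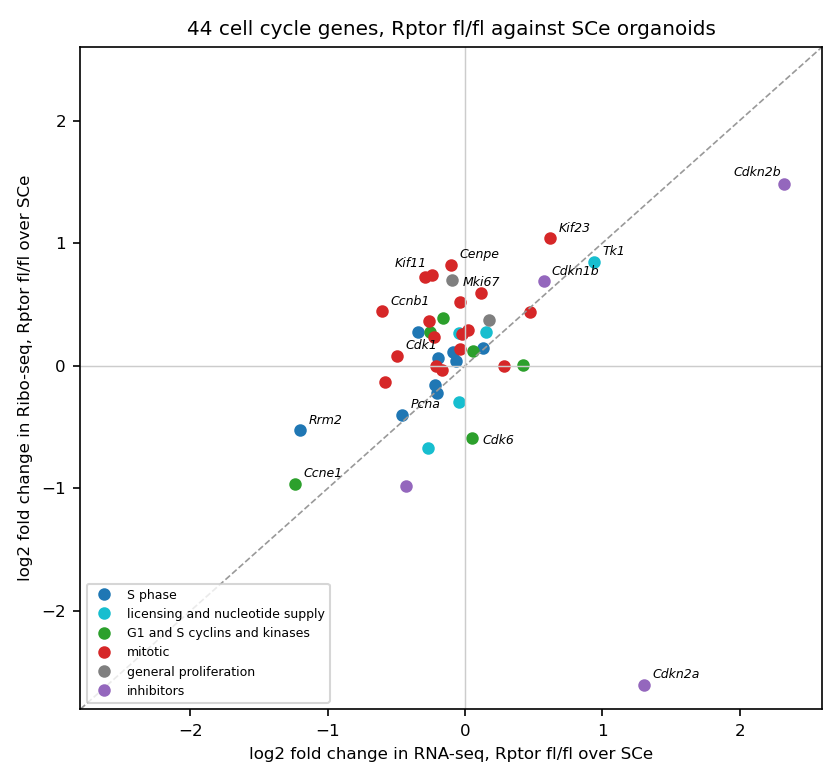
Log2 fold change of the 44 genes in Rptor fl/fl over SCe organoids in RNA-seq (x axis) and in Ribo-seq (y axis), coloured by role, with the line of equal change (dashed). The mitotic genes (red) lie above the line except Birc5 and Cdc20, which lie below it, and Cdkn2a lies at 1.30 in RNA and -2.60 in footprints.

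Translation efficiency, the change of footprints relative to RNA, was therefore compared in a single model over both assays. The *Rptor* fl/fl organoids are labelled without RPL22.HA in RNA-seq and with it in Ribo-seq. *Rptor* over SCe was at -1.89 in RNA (edgeR adjusted p = 0.00105) and at -0.53 in footprints (edgeR adjusted p = 0.318). A change of translation therefore cannot be told apart from a difference between the organoids of the assays. Of the 44 genes 2 rose, *Ccnb1* (log2 change of efficiency 1.11 ± 0.24, edgeR adjusted p = 0.0383) and *Rrm2* (0.73 ± 0.16, edgeR adjusted p = 0.0426), against 1.12% of 10747 genes. None fell, against 1.81% (edgeR, with 2 at an unadjusted p below 0.05). DESeq2 called 5 higher and 2 lower, against 4.67% and 6.57% of all genes. *Ccnb1* was at 102 and 84.6 CPM in RNA of *Rptor* fl/fl and at 111, 153 and 162 CPM in SCe, but its footprints were at 256, 255 and 233 CPM against 189, 182 and 174 CPM. Its RNA values were thus lower and its footprint values higher in *Rptor* fl/fl, without overlap of the groups in either assay. On its own, neither the RNA nor the footprint difference of *Ccnb1* passed in edgeR. *Kif11* had a similar value (1.03 ± 0.25) just past the threshold (edgeR adjusted p = 0.0529).

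The mitotic genes had a median change of efficiency of 0.52, with 17 of 18 above 0, and *Birc5*, survivin, was the exception at -0.23. The S phase genes had a median of 0.16 with 9 of 9 above 0, and all genes one of -0.03. Without SCe Ribo-seq replicate 1 the mitotic median was 0.30 with 15 of 18 above 0, and the S phase median 0.12 with 6 of 9 above 0. *Mki67* was at 0.85 (95% interval 0.11 to 1.60) and *Mcm7* at 0.68 (0.16 to 1.19). Among the cyclins and kinases *Cdk6* was at -0.58 (-1.03 to -0.14) and *Ccna2*, cyclin A2, at 0.61 (0.02 to 1.19), and none of these 4 passed. Of 48 further mitosis genes 45 were above 0 with a median of 0.55, and 3 rose, led by *Smc2* (0.98), a condensin subunit, and *Nuf2* (1.05), of the kinetochore. Of 42 further replication genes 35 were above 0 with a median of 0.28, and none rose in edgeR (5 at an unadjusted p below 0.05, and 5 in DESeq2). Of the G1 control genes *Mycn* fell (-3.92), and of the p53 targets *Perp* fell (-1.05). Both member calls were lost under the length offset and without either *Rptor* fl/fl RNA line, without SCe RNA replicate 2 or 3, or without any of the 3 *Rptor* fl/fl Ribo-seq libraries, and the S phase minus mitotic difference went from -0.35 to -0.18 without SCe Ribo-seq replicate 1.

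In mice 12 of 43 cell cycle genes tested fell in footprints of *Rptor* fl/fl over WT libraries, 5 of 9 S phase genes and 3 of 18 mitotic genes among them. This was 27.9%, where 5.97% of 11515 genes fell. None of the 43 rose in edgeR, at an unadjusted p below 0.05 or in DESeq2, where 7.47% of all genes rose. The fitted value was below 0 in 41 of the 43. The genes that fell were the helicase subunits *Mcm2*, *Mcm3*, *Mcm5*, *Mcm6* and *Mcm7*, the licensing factor *Cdc6*, *Tk1*, *Ccna2*, the mitotic genes *Top2a*, *Cenpf* and *Aurkb*, and *Mki67*.

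*Top2a* footprints were at 277, 268 and 276 CPM in WT mice and at 226, 189 and 178 CPM in *Rptor* fl/fl mice (log2 fold change -0.48 ± 0.09, edgeR adjusted p = 0.00246). *Cenpf*, a kinetochore protein, was at 50.3, 43.2 and 35.8 CPM against 28.9, 22.7 and 21.4 CPM (-0.77 ± 0.16, edgeR adjusted p = 0.00475). *Mcm2* was at 46.5, 53.6 and 47.1 CPM against 39.7, 32.1 and 32.1 CPM (-0.52 ± 0.13, edgeR adjusted p = 0.0149). In these 3 genes every *Rptor* fl/fl mouse was below every WT mouse. *Mki67* was at 176, 203 and 210 CPM against 183, 145 and 141 CPM (-0.36 ± 0.10, edgeR adjusted p = 0.0330), with *Rptor* fl/fl mouse 1 above WT mouse 1.

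The largest fitted fall, that of *Cdc6* (-0.91 ± 0.27, edgeR adjusted p = 0.0344), rested on 5.03, 14.1 and 10.9 CPM in WT and 5.90, 6.06 and 5.79 CPM in *Rptor* fl/fl, with WT mouse 1 below all *Rptor* fl/fl mice. *Mcm6* was at 94.3, 78.6 and 85.4 CPM against 71.2, 63.7 and 55.1 CPM (-0.44 ± 0.11, edgeR adjusted p = 0.0175). *Aurkb*, the kinase of the chromosomal passenger complex, was at 17.6, 21.8 and 22.9 CPM against 14.4, 13.0 and 15.8 CPM (-0.57 ± 0.17, edgeR adjusted p = 0.0339). WT mouse 1, the library with the fewest counts, was the lowest WT mouse for *Aurkb* and the highest for *Mcm6*.

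The 31 members that did not pass ranged from fitted values as low as those of the called genes to values near 0. *Birc5* was at 17.6, 16.8 and 15.8 CPM in WT mice and at 10.5, 9.10 and 13.0 CPM in *Rptor* fl/fl mice, without overlap (-0.54, 95% interval -0.95 to -0.13, edgeR adjusted p = 0.0747), and *Tyms*, thymidylate synthase, had a value of -0.53 (-0.95 to -0.10). *Rrm2* was at -0.03 (95% interval -0.34 to 0.28) and *Pcna* at -0.15 (-0.32 to 0.02), and the inhibitors *Cdkn1a* (0.06, -0.15 to 0.27), *Cdkn1b* (-0.01, -0.23 to 0.21) and *Cdkn2b* (0.14, -0.14 to 0.42) stood near 0. By class, the median log2 fold change was -0.37 for the S phase genes, with 5 of 9 called, and -0.35 for the mitotic genes, with 3 of 18 called, against -0.02 for all genes. Without WT mouse 2 the S phase median was -0.23 and the mitotic one -0.33. The licensing and supply genes had a median of -0.50 and the G1 and S cyclins and kinases one of -0.26. The mean distance between S phase and mitotic genes was 1.11 ± 0.08 log2 CPM (SD, n = 3) in *Rptor* fl/fl mice and 1.06 ± 0.04 (SD, n = 3) in WT mice.

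Among genes outside the 44, 6 of 41 further replication genes tested fell (14.6%, against 5.97% of all genes), led by *Uhrf1* (log2 fold change -0.64), a factor of maintenance methylation, and *Dut* (-0.58), the dUTPase, and 7 of 48 mitosis genes fell (14.6%), led by *Aspm* (-0.82) and *Espl1* (-0.78), which encodes separase. Their medians were -0.34 and -0.39, and none of either list rose in edgeR, at an unadjusted p below 0.05 or in DESeq2. Of 25 G1 control genes *Ccnd2* (-0.51) and *Myc* (-0.48) fell, while 8 had a fitted value above 0. Of 17 p53 target genes 5 rose (29.4%, against 7.47% of all genes), among them *Sesn1* (0.72) and *Fas* (0.79).

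Cell type markers moved as well in mice. Summed footprints of stem cell markers were at 549.6 to 576.4 CPM in WT and 346.9 to 528.9 CPM in *Rptor* fl/fl, of Paneth markers at 8173 to 8861 CPM and 4154 to 5471 CPM, and of immune markers at 1183 to 1240 CPM and 930.6 to 1012 CPM. Enterocyte markers were at 37300 to 38020 CPM and 42300 to 45510 CPM, and goblet markers at 21360 to 21770 CPM and 24960 to 27970 CPM. Each of these 5 sums separated the groups. Pancreatic acinar markers were at 717.9 to 1840 CPM and 1339 to 1928 CPM, and smooth muscle markers at 1175 to 1301 CPM and 1074 to 1235 CPM. The libraries thus held footprints of markers of other cells than crypt base stem cells. The lower cell cycle values cannot be assigned to stem cells alone. Within the stem cell sum *Olfm4* (-0.63, edgeR adjusted p = 6.29e-05) and *Ascl2* (-1.69, edgeR adjusted p = 0.00765) fell, and *Lgr5* (1.02) and *Smoc2* (0.77) did not pass. In the enterocyte sum *Alpi* (0.27), *Apoa1* (0.27) and *Apoa4* (0.48) rose and *Sis* fell (-0.39, edgeR adjusted p = 0.00730). In the immune sum *Jchain* fell (-0.45, edgeR adjusted p = 0.000373) and *Lyz2* rose (0.52, edgeR adjusted p = 0.00157). The part of these markers in the lower cell cycle footprints was not tested. *Top2a* passed under all 11 alternatives and *Cenpf* under 10 of 11. With the length offset *Top2a* was the single member called, where 2.5% of all genes fell and 3.4% rose. The call of *Mcm5* was lost under 10 of its 11 alternatives, RLE scaling and no count filter included. Without WT mouse 2 or 3 or without *Rptor* fl/fl mouse 2 or 3 the count was 2 or 3, where 3.23% to 3.67% of all genes fell. DESeq2 called 5 of the 12 genes (*Top2a*, *Cenpf*, *Mcm2*, *Mcm6* and *Mki67*), where 3.84% of all genes fell.

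**Figure D4:**
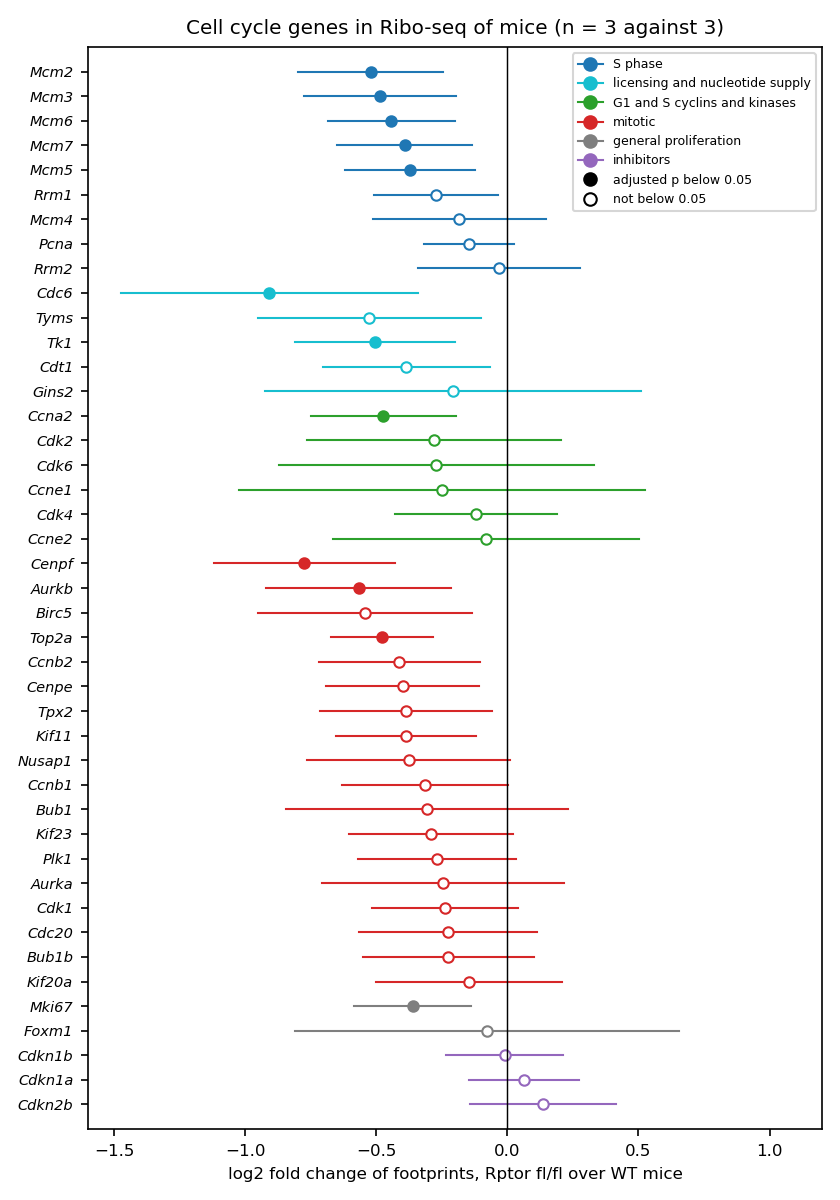
Log2 fold change of footprints in Rptor fl/fl over WT mice for the 43 genes tested, by role, with the 95% interval (lines). Filled points have an adjusted p below 0.05 and open points do not; 41 of 43 points lie below 0, and those above 0 are Cdkn1a and Cdkn2b.

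*Top2a* and *Cenpf*, the mitotic genes with the smallest adjusted p in mice, are shown by the 250 bases before their transcription starts (RefSeq, GRCm38.p6), with the same motifs in capitals.
Top2a, chr11:99024190-99024439, minus strand: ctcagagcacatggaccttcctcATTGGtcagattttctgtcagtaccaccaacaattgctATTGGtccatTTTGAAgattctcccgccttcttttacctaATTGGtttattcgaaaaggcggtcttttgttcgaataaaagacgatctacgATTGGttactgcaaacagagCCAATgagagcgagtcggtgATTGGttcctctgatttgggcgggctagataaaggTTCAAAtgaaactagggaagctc
Cenpf, chr1:189688087-189688336, minus strand: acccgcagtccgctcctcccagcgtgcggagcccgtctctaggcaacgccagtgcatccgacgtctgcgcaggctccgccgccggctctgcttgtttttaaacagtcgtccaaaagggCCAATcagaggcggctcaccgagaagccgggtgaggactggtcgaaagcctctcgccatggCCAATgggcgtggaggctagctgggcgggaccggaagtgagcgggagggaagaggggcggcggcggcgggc
The *Top2a* sequence held 6 CCAAT boxes, 5 of them on the opposite strand, and 2 CHR matches, and the *Cenpf* sequence held 2 CCAAT boxes and no match to the other motifs.

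*Cdkn2a*, the locus of p16Ink4a and p19Arf, was nearly silent in WT organoids and expressed in the others. Its estimated RNA counts were 5 and 5 in the WT lines, 476 and 251 in *Rptor* fl/fl, and 158, 110 and 80 in SCe. On the CPM scale these were 0.0944 and 0.101 in WT, 9.21 and 4.39 in *Rptor* fl/fl (log2 fold change over WT 6.09 ± 0.55, edgeR adjusted p = 0.0107) and 5.28, 1.73 and 1.38 in SCe (4.81 ± 0.87, edgeR adjusted p = 0.0117). The call against WT held under all 11 alternatives in *Rptor* fl/fl, and in SCe under 10 of 12, failing when either WT line was left out. In these small WT counts the size of the fold is imprecise.

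Nearly all of this RNA was assigned to the transcript that starts upstream. In GENCODE vM21 *Cdkn2a-202* begins at chr4:89294653 on the minus strand and has a coding sequence of 507 bases, and *Cdkn2a-201* begins at chr4:89282192 with one of 504 bases. Their first exons differ, and the exon that follows is shared but read in another frame, the upstream start giving p19Arf and the downstream one p16Ink4a. Over the 4 *Rptor* fl/fl RNA libraries, 709.11 estimated counts fell to *Cdkn2a-202* and 17.89 to *Cdkn2a-201*, and over the 3 SCe libraries 346.38 and 1.62. The 250 bases before each start show the pair of promoters that the locus uses.
Cdkn2a upstream start, chr4:89294620-89294869, minus strand: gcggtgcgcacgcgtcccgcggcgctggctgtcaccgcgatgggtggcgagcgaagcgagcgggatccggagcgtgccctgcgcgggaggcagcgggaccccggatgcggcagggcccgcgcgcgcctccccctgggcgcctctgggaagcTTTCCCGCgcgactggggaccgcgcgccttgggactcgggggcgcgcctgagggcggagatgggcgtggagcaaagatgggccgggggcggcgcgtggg
Cdkn2a downstream start, chr4:89282193-89282442, minus strand: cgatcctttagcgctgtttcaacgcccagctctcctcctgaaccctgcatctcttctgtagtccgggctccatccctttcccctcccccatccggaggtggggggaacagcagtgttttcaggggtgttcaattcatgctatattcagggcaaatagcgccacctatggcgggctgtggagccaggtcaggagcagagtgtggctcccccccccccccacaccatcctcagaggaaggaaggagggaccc
The upstream sequence held 1 E2F site (TTTCCCGC), 99 bases before the start that RefSeq gives, and the downstream one none of the motifs.

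*Cdkn2a* footprints fell in *Rptor* fl/fl over SCe organoids. They were at 1.99, 3.33 and 0.851 CPM in *Rptor* fl/fl and at 26.0, 5.97 and 5.54 CPM in SCe (log2 fold change -2.60 ± 0.73, edgeR adjusted p = 0.0425), from 12, 21 and 7 counts against 48, 7 and 24. The groups did not overlap in CPM, while RNA was at 1.30 ± 0.68 (edgeR adjusted p = 0.180). The change of efficiency, -3.87 ± 1.09, did not pass (edgeR adjusted p = 0.0827). Unlike the RNA, the estimated footprint counts were divided between the transcripts. Footprints on the shared exon fit both transcripts, so this division is an estimate from few counts and does not show translation of *Cdkn2a-201*. In SCe 47.83 were assigned to *Cdkn2a-202* and 31.43 to *Cdkn2a-201*, and in *Rptor* fl/fl 31.99 and 7.74. The footprint call held without SCe Ribo-seq replicate 3 and was lost when any of the other 5 libraries was left out, with values between -3.13 and -1.49. In mice the gene was below the count minimum, with 0, 0 and 2 counts in WT and 1, 3 and 4 in *Rptor* fl/fl. *Cdkn2b*, its neighbour, did not pass in RNA of *Rptor* fl/fl over WT organoids (0.34, 95% interval 0.03 to 0.65, edgeR adjusted p = 0.105).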

How the data were processed

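RNA-seq of organoids and Ribo-seq of organoids and mice were analysed from 23 libraries in 7 groups. The authors quantified RNA-seq reads with Salmon 1.1.0 on protein-coding transcripts of GENCODE vM21, and Ribo-seq reads, after trimming with cutadapt 1.18 and removal of rRNA, on sequences with trimmed untranslated regions, and deposited estimated counts, TPM and effective lengths. Entries for 5′ untranslated regions in organoid Ribo-seq were left out. A table of the authors' own translation efficiency comparison (p-values and log2 changes) was not used.

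Estimated counts were summed per gene and over the technical libraries of a line, rounded, filtered with filterByExpr, scaled by TMM and tested with edgeR 4.0.16 (limma 3.58.1, R 4.3.3) by quasi-likelihood, with Benjamini-Hochberg adjustment at 0.05 over all genes tested. For translation efficiency both assays entered 1 model, whose interaction term was tested. Each fit held its own groups, without covariates, and was tested on simulated data. P-values measure the spread between lines, libraries or mice, and counts per library limit the precision of low genes. Alternatives were DESeq2 1.42.0, RLE scaling, no count filter, a length offset, the replicate number as a block, technical libraries kept apart, a fit over all RNA groups, a threshold of 0.01, a wider S phase class and leaving out each replicate.

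The members and lists were chosen with earlier results of these data known. The genes named are all 44 members and the 2 genes with the smallest adjusted p among those passing in each of 4 further lists per comparison. *Rptor*, *Lgr5* and other single cell type markers are named besides. Promoters came from a RefSeq table.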

Additional observations from a re-analysis of the deposited data

How the results depend on the processing

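Of 44 genes, the numbers called changed with the settings as follows. At a threshold of 0.01 they were 0 (*Rptor* fl/fl over WT, RNA), 5 (SCe over WT), 4 (*Rptor* fl/fl over SCe, RNA), 0 (footprints), 0 (translation efficiency) and 2 (mice), against 4, 8, 8, 9, 2 and 12. The shares of all genes at 0.01 were not worked out, so these counts cannot be set beside them. DESeq2 called 13, 13, 7 and 5 in SCe over WT, *Rptor* fl/fl over SCe RNA, efficiency and mice. Of all genes it called 26.2%, 24.8%, 4.67% and 5.83% higher there and 24.6%, 25.9%, 6.57% and 3.84% lower. The length offset gave 0 for footprints, 0 for efficiency and 1 for mice. Of all genes 2.45%, 0.568% and 3.4% then rose and 3.6%, 0.512% and 2.5% fell. Without a count filter efficiency had 1, where 0.568% of all genes rose and 1.09% fell. Technical libraries kept apart gave 24, 26 and 18 in the RNA comparisons and 7 in efficiency. Of all genes 27.0%, 31.7%, 29.6% and 5.06% then rose and 27.6%, 29.5%, 31.4% and 7.19% fell. The fit over all RNA groups gave 1 for *Rptor* fl/fl over WT, where 5.42% of all genes rose and 4.78% fell. Leaving out a replicate gave 1 to 2, 2 to 24, 4 to 22, 0 to 11, 0 to 4 and 2 to 17, in the order above. The share of all genes called moved with a replicate left out as well. It ran from 2.13% to 10.4% higher and 3.93% to 13.4% lower in footprints. In mice it ran from 4.40% to 9.24% higher and 3.23% to 7.25% lower. In efficiency it ran from 0.255% to 3.59% higher and 0.391% to 4.92% lower. The cause of these changes was not tested.

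With the replicate block the count was 14 for *Rptor* fl/fl over WT RNA (5 higher and 9 lower, where 16.7% of all genes rose and 16.9% fell). It was 7 for SCe over WT, 5 for *Rptor* fl/fl over SCe RNA, 4 for footprints, 0 for efficiency and 5 for mice. Of all genes 11.7%, 11.1%, 4.77%, 0.0186% and 6.35% rose in these and 9.39%, 11.5%, 6.58%, 0.0186% and 4.98% fell. Deviations of same-numbered samples from their group means correlated with r of 0.135 to 0.25 in RNA and -0.044 to 0.029 in Ribo-seq of organoids. In a group of 2 lines the deviations mirror each other, so the RNA values cannot decide whether the numbers are pairs. SCe replicate 3 also had r of 0.221 with *Rptor* fl/fl line 2 and 0.129 with WT line 2. The other differently numbered RNA pairs were negative. The methods mention extra VillinCre *Rptor* fl/fl animals induced in vitro to give paired samples, without naming the libraries made from them. The main fits did not use the numbers as a pairing, and the RNA counts depend on this choice.

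The difference of S phase and mitotic medians in *Rptor* fl/fl over WT RNA, 0.02, was 0.066 with 14 S phase genes and -0.013 to 0.038 without a replicate. For footprints it was -0.61 with the length offset. Without a replicate it ran from -0.44 to -0.18 for efficiency and from -0.046 to 0.10 in mice. With the length offset the footprint values of *Ccne1* and *Cdk6* reversed to 0.55 (edgeR adjusted p = 0.707) and 1.69 (edgeR adjusted p = 0.338).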
